A study of Homo sapiens with 18 samples.

Results

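SH-SY5Y cells that received no treatment were compared at 24 h and at 3 h, to show what changed with time in the control cultures alone. SH-SY5Y is a cloned line of human neuroblastoma, a childhood tumour of the sympathetic nerve lineage, and the labels describe it as a neuronal line of the brain. The arrays were chosen by their labels: 3 arrays of untreated cells at 24 h and 3 of untreated cells at 3 h, 6 of the 18 arrays in all. The study as a whole measured RNA of these cells on oligonucleotide arrays of 22283 probe sets, without treatment or with sarin, an organophosphate inhibitor of acetylcholinesterase, at 5 ppm. Each state was sampled at 3, 24 and 48 h, with 3 arrays per group. Beside the comparison of untreated cells, sarin-exposed cells at 24 h (3 arrays) were set against sarin-exposed cells at 3 h (3 arrays), which share no array with it. The labels name 6 flasks for a group and 3 replicates, and do not say how flasks were divided among arrays, so p-values here measure the spread between arrays, which may be technical. The labels do not say from when the hours were counted, nor in which medium, at which density or at which passage the cells were kept. No label gives a day of harvest or of hybridisation, and any batch that went with time cannot be told apart from time.

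Neuroblastoma cells in culture keep features of the sympathetic neuroblast: they make catecholamines, store them with chromogranins in dense-core vesicles, and divide. Growth factors of the BMP family act through SMAD proteins and switch on the ID genes, whose products bind and block the helix-loop-helix factors that drive differentiation. MYC is a short-lived transcription factor that responds within hours to growth signals, and CDKN1C encodes p57, an inhibitor of the kinases that move cells into S phase.

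All 11 neuroblastoma marker genes with a probe set (among them DBH, GATA2, GATA3, ISL1, HAND2 and STMN2) were above background on every one of the 6 arrays, and their summed signal was 102951 to 114716 at 24 h and 96088 to 116284 at 3 h. Of 9 glial markers, 6 were above background on each 24 h array and 4 to 5 on the 3 h arrays. Of 9 blood and endothelial markers the counts were 3 to 6 at 24 h and 3 to 5 at 3 h, and of 10 epithelial markers 4 to 5 at 24 h and 2 to 7 at 3 h. The summed signals of these 3 lists were 2712 to 3219, 1968 to 2926 and 1450 to 1992 at 24 h, against 1811 to 2599, 1318 to 2092 and 1132 to 1392 at 3 h. HBB, the beta-globin gene, was the 1 that passed the test described below among the 5 genes of these 3 lists bright enough to be tested (0.98 ± 0.25 in log2 units, adjusted p = 0.0255). It passed in 2 of 6 fits that each left out 1 array, and not with quantile normalization or median centring. The part of these other markers in the results was not tested. Since a bulk array reads the whole culture, fewer cells of a kind and less RNA per cell cannot be told apart.

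Several properties of the arrays moved with time. The ratio of the 3′ to the 5′ probe set of ACTB (beta-actin), a sign of RNA or cRNA length, was 1.46 to 1.504 at 24 h and 0.790 to 1.14 at 3 h, whereas that of GAPDH overlapped (0.811 to 0.941 at 24 h, 0.696 to 0.999 at 3 h). Median signal was 397 to 413.9 at 24 h and 310.2 to 339.2 at 3 h, although the deposited values share a trimmed mean of 800.2 to 800.3. The mean signal of the hybridisation spike-ins was 1866 to 3981 at 24 h and 1264 to 1839 at 3 h. One 3 h array, replicate 3, lay away from its group: its brightest probe set read 162749, and its correlation with the other 3 h arrays over genes was 0.909 and 0.927, against 0.946 between those. The sarin arrays at 48 h, which enter through the estimate of spread and through the mean level that chose probe sets and genes, also stood apart, with an ACTB ratio of 3.68 to 4.67. With probe sets and the level filter chosen over the other 15 arrays, an alternative added after seeing the data, 363 genes passed in untreated cells, 354 of them among the 408 described next; 15 of the 408, all higher at 24 h, were no longer tested, and 18 had another probe set.

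Of 7178 genes tested, 408 (5.68%) passed an adjusted p of 0.05 between 24 h and 3 h (limma's moderated test on log2(signal + 16), two-sided, Benjamini-Hochberg). Of these, 256 (3.57% of genes tested) were higher at 24 h and 152 (2.12%) were lower. In 125 the change reached 2-fold, 98 of them higher and 27 lower. The signals of the 3 arrays at 24 h did not overlap those at 3 h in 406 of the 408, and in 1825 (25.4%) of all genes tested. The split depended on scaling: with each array centred on its median, 93 genes were higher and 1097 lower (7.82% of calls higher, against 62.8% as deposited), and with quantile normalization 106 were higher and 56 lower. Centring moved the median log2 change of all tested genes from 0.088 to -0.24, and scaling to the spike-ins moved it to -0.69, where 10 genes passed as higher and 2480 as lower. Changes below are on the deposited scale, on which the median gene lies at 0.088.

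The direction of change went with signal level. Among all genes with a probe set, ranked by level in deciles, the median log2 change was 0.48 in the fourth decile and -0.17 in the top decile. That decile held 92 of the 152 genes that were lower at 24 h and 23 of the 256 that were higher. The fit on the 6 arrays alone, which has fewer degrees of freedom and takes its spread from those arrays only, called 56 genes. In sarin-exposed cells the same restriction raised the count from 639 to 1688, and the causes were not tested. The fit without the sarin 48 h arrays called 692 in untreated cells. Leaving out 1 array in turn gave 175 (without replicate 2 of 24 h) to 537 (without replicate 2 of 3 h) genes; without replicate 1 or 3 of 24 h, or replicate 1 of 3 h, the count was 197, 178 and 228. A set of 97 genes passed in all 6 of those fits, and 81 of them (50 higher, 31 lower) also passed, in the same direction, with quantile normalization and with median centring. These 81, a set formed after the data were seen, are called stable below. With the ACTB ratio as a covariate and no sarin 48 h arrays, 306 genes passed, 61 of them among the 408 and in the same direction. Of the 81 stable genes, 23 passed in that fit, 52 with all probe sets of a gene averaged, 73 with probe sets chosen over the 15 arrays and 45 on the 6 arrays alone, so that stable refers to left-out arrays and scaling only.

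**Figure D1:**
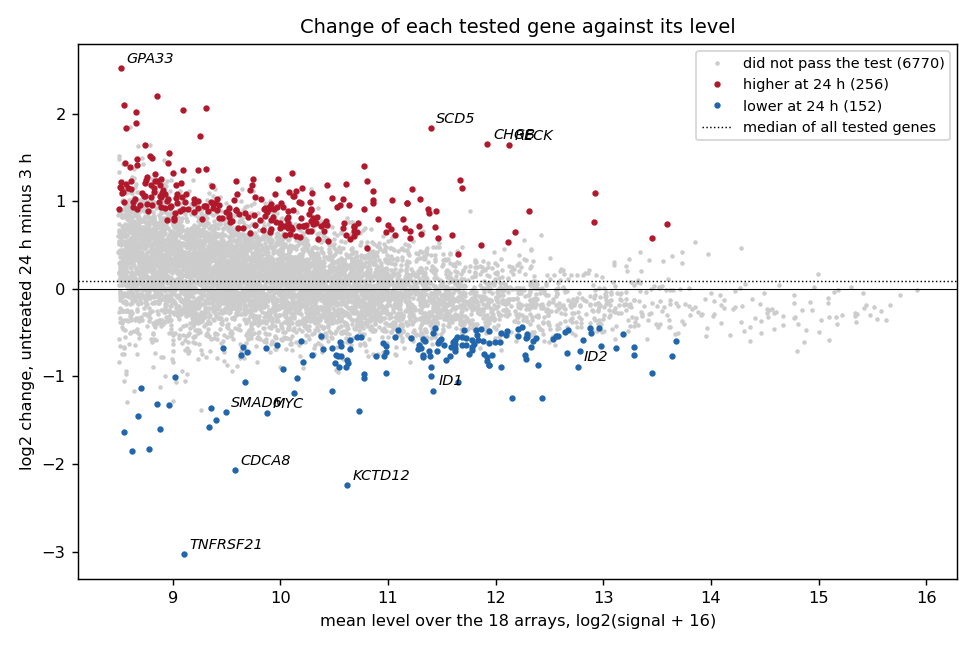
Log2 change of each of the 7178 tested genes (untreated cells, 24 h minus 3 h) against its mean log2(signal + 16) over the 18 arrays. Red points (256) were higher and blue points (152) lower at an adjusted p under 0.05, grey points did not pass, and the dotted line marks the median of 0.088; genes of low level lie above it more often than genes of high level.

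Several genes that BMP signals switch on fell. Of 13 tested genes in a list of ID, BMP, TGF-beta, Notch and Wnt response genes, 5 fell and 0 rose, against 2.12% of all tested genes that fell, and the median log2 change of the list was -0.49, beside 0.088 over all tested genes. ID1 signal was 2178, 1902 and 2180.3 on the 24 h arrays, against 5806, 4033 and 4394 on the 3 h arrays. ID2 signal was 5487, 4059 and 5267 on the 24 h arrays, against 9512, 8749.9 and 9004 on the 3 h arrays. The 24 h arrays lay below every 3 h array for both, by a log2 change of -1.16 ± 0.15, adjusted p = 0.000213 for ID1 and -0.89 ± 0.14, adjusted p = 0.00146 for ID2. ID3 was more variable, at 1565, 1069 and 1384 on the 24 h arrays, against 5352, 2979 and 2678 on the 3 h arrays; its change was -1.39 ± 0.36, adjusted p = 0.0297, and it passed in 2 of the 6 fits that left out 1 array. SMAD6, an inhibitory SMAD that BMP signals induce and that damps them in turn, had 476, 397 and 371 on the 24 h arrays, against 1222, 1337 and 862 on the 3 h arrays (-1.41 ± 0.22, adjusted p = 0.00103). BAMBI, a membrane pseudoreceptor that also damps these signals, had 1167, 1082 and 1074 on the 24 h arrays, against 2116, 2002 and 1375 on the 3 h arrays (-0.69 ± 0.15, adjusted p = 0.0117). ID1, ID2 and SMAD6 are among the stable genes. Of 4 probe sets for SMAD6, 2 changed in the other direction, as did 1 of 2 for ID2, and with all probe sets of a gene averaged neither passed. With the ACTB ratio as a covariate ID1 and ID3 did not pass. The other 8 tested members did not pass; among them SMAD7 had a log2 change of -0.49, HES1 -0.38 and LEF1 -0.32.

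Promoters of 2 of the genes that fell are shown because they hold words known from SMAD binding, with 250 bases before and 50 after the annotated start (RefSeq, GRCh38.p14), motif matches in capitals. Motifs and promoters were chosen with the changes known.
SMAD6: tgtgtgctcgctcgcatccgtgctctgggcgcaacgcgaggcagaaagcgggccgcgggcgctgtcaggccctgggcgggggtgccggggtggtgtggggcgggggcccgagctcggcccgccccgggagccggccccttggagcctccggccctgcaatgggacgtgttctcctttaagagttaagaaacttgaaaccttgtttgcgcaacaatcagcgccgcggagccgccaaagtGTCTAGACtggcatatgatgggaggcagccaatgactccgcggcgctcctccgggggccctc
BAMBI: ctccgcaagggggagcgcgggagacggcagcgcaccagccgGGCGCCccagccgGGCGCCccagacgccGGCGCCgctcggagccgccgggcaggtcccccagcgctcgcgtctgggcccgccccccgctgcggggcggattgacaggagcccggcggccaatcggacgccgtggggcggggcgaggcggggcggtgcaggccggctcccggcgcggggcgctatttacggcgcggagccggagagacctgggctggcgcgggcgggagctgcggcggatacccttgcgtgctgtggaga
The SMAD6 window (chr15:66701986-66702285, plus strand) holds GTCTAGAC, a palindrome that SMAD3 and SMAD4 bind in vitro, which begins 12 bases before the start. That word is in 71 of 35116 promoter windows (0.202%, both strands searched). The BAMBI window (chr10:28677271-28677570, plus strand) holds GGCGCC, a word bound by SMAD1 and SMAD5, 3 times, at -209, -196 and -181; 19.2% of all windows and 37.8% of tested genes with a window hold it. Of the 11 list members with a window, 1 holds GTCTAGAC and 1 holds GGCGCC. A match of letters is a description of these windows, and whether a factor was bound there was not measured.

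MYC fell at 24 h. Its signal was 602, 452 and 646 on the 24 h arrays, against 1849, 1444 and 1334 on the 3 h arrays, and the groups were well apart (-1.42 ± 0.23, adjusted p = 0.00143); it is among the stable genes. Of 20 tested immediate early genes, 2 fell, MYC and SPRY2 (-0.50 ± 0.13, adjusted p = 0.0251), an inhibitor of growth factor receptor signalling, and 0 rose. The list's median was 0.018, and over all tested genes 2.12% fell and 3.57% rose. FOS, the classic gene of serum stimulation, lay under the level filter: its signal was 244, 261 and 128 on the 3 h arrays, above background on 2 of them, and above background on 0 of 3 at 24 h (adjusted p = 0.00383 in the fit without the level filter). FOS is named here after its values were seen. EGR1 had a log2 change of 0.079 and JUN -0.23, which did not pass. MYCN, the MYC paralog that is amplified in many neuroblastomas, had 626, 610.1 and 390.4 on the 24 h arrays, against 404, 327 and 291 on the 3 h arrays and did not pass (0.63 ± 0.33, adjusted p = 0.256). Of 20 tested genes for ribosome building and other growth genes that MYC controls, MYC itself was the 1 that fell and 0 rose (median -0.18).

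**Figure D2:**
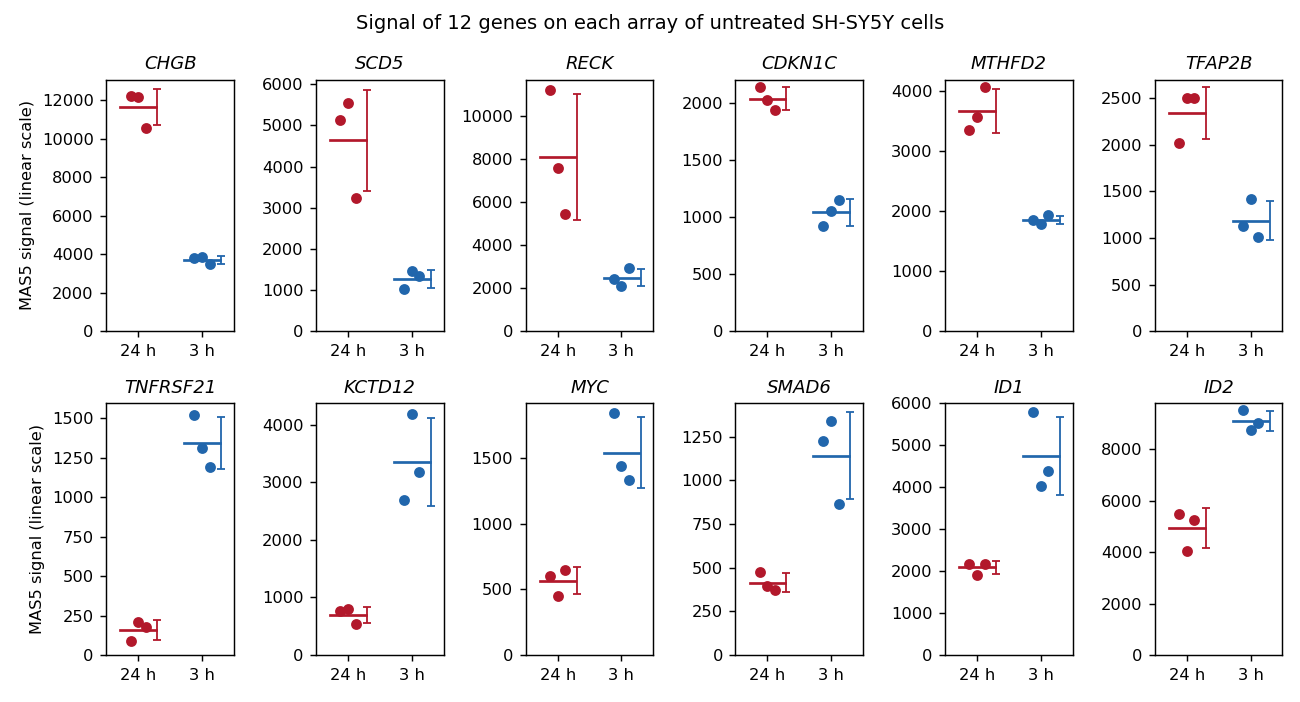
Signal (linear scale, from 0) of 12 genes on each of the 3 arrays of untreated cells at 24 h (red, left) and the 3 at 3 h (blue, right); lines mark the group mean and bars the SD. In each of the 6 upper panels all 24 h arrays lie above all 3 h arrays, and in each of the 6 lower panels they lie under them.

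Some genes of mitosis fell, by small amounts. Of 49 tested, 7 fell and 0 rose, against 2.12% of all tested genes that fell and 3.57% that rose. Of the 49, 42 had a negative sign, and the median log2 change was -0.25. It was 0.088 over all tested genes and -0.17 in the top decile by level. The part of signal level in the fall of this list was not tested. KPNA2, a nuclear import receptor that peaks in dividing cells, had 7646, 8983 and 7465 on the 24 h arrays, against 11361, 11891 and 14877 on the 3 h arrays (-0.66 ± 0.13, adjusted p = 0.00517) and is among the stable genes. The cyclin genes CCNA2 (-0.75 ± 0.20, adjusted p = 0.0326) and CCNB2 (-0.55 ± 0.15, adjusted p = 0.0361) fell. So did CDK1, the kinase that both cyclins act with (-0.63 ± 0.16, adjusted p = 0.03). For CCNA2 the groups overlapped, at 1608, 1687 and 3031 on the 24 h arrays, against 3238, 4242 and 2896 on the 3 h arrays. The other probe set of CCNA2 changed by -0.21 and did not pass. TOP2A, the topoisomerase that untangles sister chromatids, changed by -0.47 ± 0.13, adjusted p = 0.0421 and KIF4A, a chromosome-bound kinesin, by -0.60 ± 0.17, adjusted p = 0.0454. CCNA2, CCNB2, CDK1, TOP2A and KIF4A passed in 0 to 2 of the 6 fits that left out an array, and 1 probe set each of KPNA2, CDK1 and TOP2A went the other way, so that none of these 3 passed with all probe sets averaged. TOP2A took its other probe set, at 0.17, when probe sets were chosen over the 15 arrays, and KPNA2 did not pass with the ACTB ratio as a covariate. With quantile normalization 1 of the 49 passed as lower, and with median centring 21 did. MKI67, the gene of the proliferation antigen Ki-67, had 1392, 1579 and 1349.6 on the 24 h arrays, against 2062, 2081 and 1771 on the 3 h arrays and did not pass (-0.45 ± 0.17, adjusted p = 0.111). Its other probe sets disagreed, with changes of 0.067, -0.30 and -0.92. The last of them passed in limma's fit of all probe sets (adjusted p = 0.0364). Of 41 DNA replication genes, MCM6 (-0.53 ± 0.14, adjusted p = 0.0289) and MCM2 (-0.46 ± 0.13, adjusted p = 0.0476), parts of the helicase that opens origins, fell and 0 rose (median -0.021). CDCA8, which encodes borealin of the chromosomal passenger complex, stood among the largest falls, at 403, 259 and 514 on the 24 h arrays, against 1616, 2165 and 1254 on the 3 h arrays (-2.07 ± 0.34, adjusted p = 0.00193).

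Promoters of 2 of the 7 mitotic genes are shown because both hold the pair of words that cell cycle promoters are known for: CCAAT, bound by NF-Y, and TTTGAA, the core of the cell cycle genes homology region (CHR), which the MuvB complexes bind. Capitals mark these words on either strand (RefSeq, GRCh38.p14).
CCNB2: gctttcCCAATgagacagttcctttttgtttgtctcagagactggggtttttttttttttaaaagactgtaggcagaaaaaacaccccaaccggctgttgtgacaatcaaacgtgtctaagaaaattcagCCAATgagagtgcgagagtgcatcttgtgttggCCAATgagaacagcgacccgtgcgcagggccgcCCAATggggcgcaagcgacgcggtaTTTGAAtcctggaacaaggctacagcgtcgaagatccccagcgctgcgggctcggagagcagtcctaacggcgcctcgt
KIF4A: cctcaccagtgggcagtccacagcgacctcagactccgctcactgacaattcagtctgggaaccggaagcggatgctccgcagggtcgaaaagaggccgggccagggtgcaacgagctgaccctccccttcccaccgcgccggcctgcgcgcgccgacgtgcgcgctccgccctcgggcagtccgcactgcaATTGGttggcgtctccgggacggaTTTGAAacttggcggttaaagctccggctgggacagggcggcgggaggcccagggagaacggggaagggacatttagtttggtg
In the CCNB2 window (chr15:59104896-59105195, plus strand) TTTGAA begins at -29 and CCAAT at -244, -120, -87 and -54. In the KIF4A window (chrX:70289854-70290153, plus strand) TTTGAA begins at -34, and CCAAT, read on the other strand, at -58. TTTGAA was found in 29 of the 41 mitosis genes with a window (70.7%), in 5 of the 7 that fell, and in 14.4% of tested genes with a window. CCAAT was found in 33 of the 41 (80.5%) and all 7 of those that fell, beside 45.1% of tested genes. A gene counts where any of its windows holds the word.

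Both chromogranin genes rose at 24 h. CHGB, the gene of chromogranin B, had 12238, 12199.8 and 10566 on the 24 h arrays, against 3786, 3860 and 3482 on the 3 h arrays. The 3 arrays of each group lay close together and far from the other group; the log2 change was 1.65 ± 0.11, adjusted p = 2.1e-08, the smallest p of any gene tested, and CHGB passed in all 23 alternative fits. CHGA, the gene of chromogranin A, had 23062, 14833 and 15471 on the 24 h arrays, against 11054, 8909 and 11603 on the 3 h arrays (0.74 ± 0.17, adjusted p = 0.0144), did not pass with median centring and turned to -0.042 under spike-in scaling. These were the 2 that rose of 12 tested granin and neuropeptide genes, of which 0 fell (median 0.22). Over all tested genes, 3.57% rose and 2.12% fell. SCG2 (secretogranin II) had a log2 change of -0.61, NPY (neuropeptide Y) 0.31 and VGF 0.26, none past the threshold. TAC1, the gene of substance P, lay under the level filter; its signal was 158, 226 and 209 at 24 h, above background on 2 arrays, and above background on 0 of 3 at 3 h (adjusted p = 0.00593 without the filter, named after its values were seen).

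The CHGA promoter is shown for its cAMP response element, the word TGACGTCA bound by CREB and its relatives (RefSeq, GRCh38.p14, chr14:92922900-92923199, plus strand, match in capitals).
CHGA: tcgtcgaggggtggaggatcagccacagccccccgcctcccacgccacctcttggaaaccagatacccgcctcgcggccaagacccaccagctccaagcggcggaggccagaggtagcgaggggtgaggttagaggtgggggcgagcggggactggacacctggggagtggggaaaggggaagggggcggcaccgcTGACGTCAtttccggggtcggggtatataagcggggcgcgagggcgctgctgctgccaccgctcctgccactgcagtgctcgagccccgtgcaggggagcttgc
The word begins 54 bases before the start and is in 1.85% of all windows and in 4.04% of tested genes with a window. Of 8 tested granin and neuropeptide genes with a window, 2 hold it.

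Genes of noradrenergic identity moved in both directions: of 23 tested, 3 rose and 2 fell, with a median of 0.10. Over all tested genes, 3.57% rose and 2.12% fell. TFAP2B, an AP-2 transcription factor of the sympathetic lineage, had 2019, 2497 and 2499 on the 24 h arrays, against 1133, 1416 and 1006 on the 3 h arrays (0.98 ± 0.15, adjusted p = 0.00103) and is among the stable genes, though it did not pass with the ACTB ratio as a covariate. DDC, which makes dopamine from L-DOPA, changed by 0.58 ± 0.16, adjusted p = 0.0399 and SLC6A2, the noradrenaline transporter, by 0.61 ± 0.18, adjusted p = 0.0453. SOX11 (-0.49 ± 0.12, adjusted p = 0.0245) and PHOX2A (-0.51 ± 0.14, adjusted p = 0.0375), transcription factors of sympathetic neuroblasts, fell. Those 4 passed in 1 to 3 of the 6 fits that left out an array. Other probe sets of SOX11 changed by 0.16 and -0.30, and the other one of DDC by -0.16. DBH, the enzyme that makes noradrenaline, had 11549.9, 11776 and 12018 on the 24 h arrays, against 10462, 9192 and 12133 on the 3 h arrays, with overlapping groups (0.16 ± 0.17, adjusted p = 0.616). ACHE, the gene of sarin's target enzyme, had 203, 41.4 and 203 on the 24 h arrays, against 216, 105 and 247 on the 3 h arrays and did not pass (-0.47 ± 0.78, adjusted p = 0.767, without the level filter). Of 35 genes of the substrate-adherent, mesenchymal state, THBS1 (thrombospondin 1, 0.95 ± 0.21, adjusted p = 0.0117) rose, ACTA2 (alpha smooth muscle actin, -0.68 ± 0.18, adjusted p = 0.0327) fell, and VIM (vimentin) did not pass (-0.43 ± 0.23, adjusted p = 0.259). ACTA2 turned to 0.35 when its 2 probe sets were averaged.

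Genes of the ATF4 programme, which answers shortage of amino acids, rose in part. Of 33 tested, 5 rose and 1 fell (median 0.23), against 3.57% and 2.12% of all tested genes. MTHFD2, a mitochondrial enzyme of folate metabolism, had 3356, 3576 and 4080.2 on the 24 h arrays, against 1848, 1790 and 1930.4 on the 3 h arrays (0.97 ± 0.15, adjusted p = 0.00104). TRIB3, a pseudokinase that ATF4 induces, had 1509, 1632 and 1661 on the 24 h arrays, against 795, 1097 and 840.2 on the 3 h arrays (0.82 ± 0.17, adjusted p = 0.0107). The others that rose were DDIT3 (CHOP, 0.71 ± 0.19, adjusted p = 0.0337), CBS, which makes cystathionine (0.61 ± 0.16, adjusted p = 0.0339), and CARS1, the cysteinyl-tRNA synthetase (0.53 ± 0.15, adjusted p = 0.0396). SLC38A2, an amino acid transporter, fell (-0.74 ± 0.17, adjusted p = 0.0146). MTHFD2 is among the stable genes; TRIB3, DDIT3, CBS and CARS1 did not pass with median centring. ASNS, a standard ATF4 target, had a log2 change of 0.024 and ATF4 itself 0.27, neither past the threshold.

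Of 25 hypoxia-inducible genes outside glycolysis, 5 rose and 0 fell (median 0.24), against 3.57% and 2.12% of all tested genes. WSB1, part of a ubiquitin ligase, had 2796, 3249 and 3346 on the 24 h arrays, against 1390.5, 2054 and 978 on the 3 h arrays (1.14 ± 0.21, adjusted p = 0.00403). DDIT4 (REDD1, an inhibitor of mTORC1) had 1741, 1759 and 2037 on the 24 h arrays, against 974, 856 and 846 on the 3 h arrays (1.03 ± 0.20, adjusted p = 0.00517). These are stable genes, though neither passed with the ACTB ratio as a covariate. EGLN1 (the oxygen sensor PHD2, 0.69 ± 0.19, adjusted p = 0.0363), STC1 (stanniocalcin 1, 0.78 ± 0.22, adjusted p = 0.043) and HMOX1 (heme oxygenase 1, 1.26 ± 0.37, adjusted p = 0.0486) rose less firmly, passing in 1 or 2 of the 6 fits that left out an array. VEGFA (0.47) and NDRG1 (-0.016) did not pass. Of 20 genes of glucose uptake and glycolysis, SLC2A1, the glucose transporter GLUT1, rose (0.72 ± 0.16, adjusted p = 0.0129) and 0 fell (median 0.093). ALDOA had -0.52 ± 0.18, adjusted p = 0.0969.

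Among 16 genes of growth factor withdrawal and quiescence, 1 rose and 1 fell (median 0.16), beside 3.57% and 2.12% of all tested genes. CDKN1C had 2143, 2029 and 1939 on the 24 h arrays, against 919, 1056 and 1154 on the 3 h arrays, a clear separation (0.96 ± 0.15, adjusted p = 0.00103). TXNIP, which binds thioredoxin and restrains glucose uptake, had 2729.7, 2965 and 2802 on the 24 h arrays, against 4403, 3798 and 5869 on the 3 h arrays (-0.70 ± 0.14, adjusted p = 0.00669). Both passed in all 6 fits that left out an array, and neither passed with the ACTB ratio as a covariate. CDKN1C also did not pass with its 5 probe sets averaged, all of which had a positive change. CDKN1A (p21, -0.59) and CDKN1B (p27, -0.38) did not pass.

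Genes of nuclear speckles, the bodies that store splicing factors, rose in part: 4 of 18 rose, 0 fell, and the median was 0.26. Among all tested genes, 3.57% rose and 2.12% fell. CCNL2, a cyclin that works with splicing kinases, had 1453, 1569 and 1389 on the 24 h arrays, against 656, 649 and 549 on the 3 h arrays (1.23 ± 0.20, adjusted p = 0.00143). SRRM2, a scaffold of speckles, changed by 0.79 ± 0.15, adjusted p = 0.004, PNISR by 1.10 ± 0.24, adjusted p = 0.0116 and CCNL1 by 0.70 ± 0.19, adjusted p = 0.038. CCNL2 is among the stable genes, and SRRM2 and CCNL1 did not pass with median centring. A second probe set of SRRM2, of nearly the same level, had -0.35; it was the one taken when probe sets were chosen over the 15 arrays, and SRRM2 did not pass with its probe sets averaged. Of 56 splicing factors, 4 fell, SNRPB (-0.77 ± 0.21, adjusted p = 0.0344), SNRPB2 (-0.74 ± 0.17, adjusted p = 0.0186), SNRPD3 (-0.66 ± 0.18, adjusted p = 0.0359) and U2AF1 (-0.76 ± 0.19, adjusted p = 0.0279), and SRSF11 rose (0.70 ± 0.19, adjusted p = 0.0376). Those 5 passed in 0 to 2 of the 6 fits that left out an array, and SNRPB turned to 0.079 and SRSF11 to -0.039 with the ACTB ratio as a covariate.

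Cholesterol synthesis genes fell in 3 of 16 and rose in 0 (median -0.11), where 2.12% of all tested genes fell and 3.57% rose. SQLE (squalene epoxidase) had 2045, 2908 and 2185 on the 24 h arrays, against 3538, 3739 and 4363 on the 3 h arrays (-0.71 ± 0.16, adjusted p = 0.0127). HMGCS1, which makes HMG-CoA, changed by -0.66 ± 0.18, adjusted p = 0.0401 and MSMO1, a sterol oxidase, by -0.72 ± 0.21, adjusted p = 0.0454; each of these 2 passed in 1 of the 6 fits that left out an array, and SQLE in 4 but not with quantile normalization. Of 10 fatty acid synthesis genes, 0 passed in limma's test, with a median of -0.13. In that list 2 had an unadjusted p under 0.05, beside 1673 of all 7178 tested genes. Outside that list, SCD5, a neuronal stearoyl-CoA desaturase, was among the largest rises, at 5132, 5544 and 3244 on the 24 h arrays, against 1018, 1453 and 1336 on the 3 h arrays (1.84 ± 0.22, adjusted p = 0.000142), while SCD had -0.34 ± 0.19, adjusted p = 0.279. SCD5 did not pass with the ACTB ratio as a covariate. Of 29 genes of lysosomes and autophagy, 3 fell and 1 rose (median -0.15), to be read against the same 2.12% and 3.57%. GABARAPL2, which helps autophagosomes mature, had 3637, 3326 and 3883 on the 24 h arrays, against 7064, 5273 and 8129 on the 3 h arrays (-0.89 ± 0.17, adjusted p = 0.0044). SCARB2, the lysosomal membrane protein LIMP-2, changed by -0.78 ± 0.13, adjusted p = 0.00193 and CTSB (cathepsin B) by -0.76 ± 0.17, adjusted p = 0.0127. GABARAPL2 and SCARB2 are among the stable genes, though 1 of 3 probe sets for SCARB2 went the other way and it did not pass with all 3 averaged. Neither gene passed with the ACTB ratio as a covariate, where GABARAPL2 had -0.26 and SCARB2 -0.80. CTSB did not pass with quantile normalization. The autophagy receptor gene SQSTM1 rose (0.70 ± 0.17, adjusted p = 0.0241).

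The abundant housekeeping classes showed few calls, to be read beside the 3.57% of all tested genes that rose and the 2.12% that fell. Of 51 cytosolic ribosomal protein genes, 1 fell, RPS9 (-0.60 ± 0.14, adjusted p = 0.0168), and 0 rose. The other probe set of RPS9 went the other way (0.14). Still, 48 of the 51 genes had a negative sign and the median was -0.30. That median rested on replicate 3 of 3 h: without it the median was 0.082, and with quantile normalization -0.029. On that array GAPDH read 142399 and ACTB 122959, against 50095 and 30738 for GAPDH and 50657 and 45265 for ACTB on the other 3 h arrays. At 24 h GAPDH had 66097, 47182 and 41969 and ACTB 71229, 62610.5 and 54455, and neither passed (-0.25 ± 0.36, adjusted p = 0.72 for GAPDH and -0.072 ± 0.28, adjusted p = 0.91 for ACTB). Of 47 mitochondrial ribosomal protein genes 0 passed in limma's test and 5 had an unadjusted p under 0.05, all lower (median -0.12). That count of 5 is to be read beside 1673 of all 7178 tested genes with an unadjusted p under 0.05. Of 64 subunits of oxidative phosphorylation 1 rose (ATP5IF1, 0.57 ± 0.17, adjusted p = 0.0486) and 1 fell (NDUFB5, -0.67 ± 0.14, adjusted p = 0.00913). Of 31 proteasome genes PSMC3 fell (-0.61 ± 0.18, adjusted p = 0.0494) and 0 rose, and PSMC3 turned to 0.056 with the ACTB ratio as a covariate.

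Other lists held few calls, to be read against the 3.57% of all tested genes that were higher and the 2.12% that were lower; several of the counts lie near those shares. Among 20 endoplasmic reticulum chaperones and unfolded protein response genes, PDIA6, a disulfide isomerase (0.76 ± 0.17, adjusted p = 0.0127), and WFS1 (wolframin, 0.66 ± 0.17, adjusted p = 0.0279) rose. The other 3 probe sets of PDIA6 changed by 0.035, 0.22 and -0.15, and PDIA6 passed neither with its probe sets averaged nor with median centring. Of 17 heat shock protein genes, TRAP1, the mitochondrial HSP90, rose (0.88 ± 0.21, adjusted p = 0.0168) and DNAJA1, a co-chaperone of HSP70, fell (-0.47 ± 0.13, adjusted p = 0.0437). Of 32 genes of the neuronal cytoskeleton and growth cone, the kinesin genes KIF5C (0.50 ± 0.12, adjusted p = 0.0168) and KIF1A (0.82 ± 0.20, adjusted p = 0.021) rose and MARCKSL1 fell (-0.67 ± 0.19, adjusted p = 0.0413). Of 11 genes of synaptic vesicle release, DNM1 (dynamin 1, 0.85 ± 0.21, adjusted p = 0.0212) rose and SYT1 (synaptotagmin 1, -0.58 ± 0.16, adjusted p = 0.0341) fell. Of 39 genes of secretory translocation and vesicle coats, DDOST, part of the oligosaccharyltransferase, fell (-0.71 ± 0.19, adjusted p = 0.0369). Of 16 cholinergic genes and hydrolases that organophosphates bind, PNPLA6 (neuropathy target esterase) rose (0.76 ± 0.21, adjusted p = 0.0404). Of 11 channel, glutamate and GABA genes, GLUL (glutamine synthetase) fell (-0.74 ± 0.17, adjusted p = 0.0149), and of 16 interferon and inflammation genes HLA-E rose (0.60 ± 0.18, adjusted p = 0.0486). Of 16 p53 response genes 0 passed in limma's test and 4 had an unadjusted p under 0.05, PPM1D lying nearest (-0.59 ± 0.20, adjusted p = 0.0893) and GADD45A next (1.11 ± 0.41, adjusted p = 0.108). Over all 7178 tested genes 1673 had an unadjusted p under 0.05, and 4 of 16 lies near that share. Of 23 oxidative stress and metallothionein genes, HMOX1 was the 1 that rose and 0 fell. The genes that passed in these lists, HMOX1 included, did so in 0 to 4 of the 6 fits that left out an array.

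**Figure D3:**
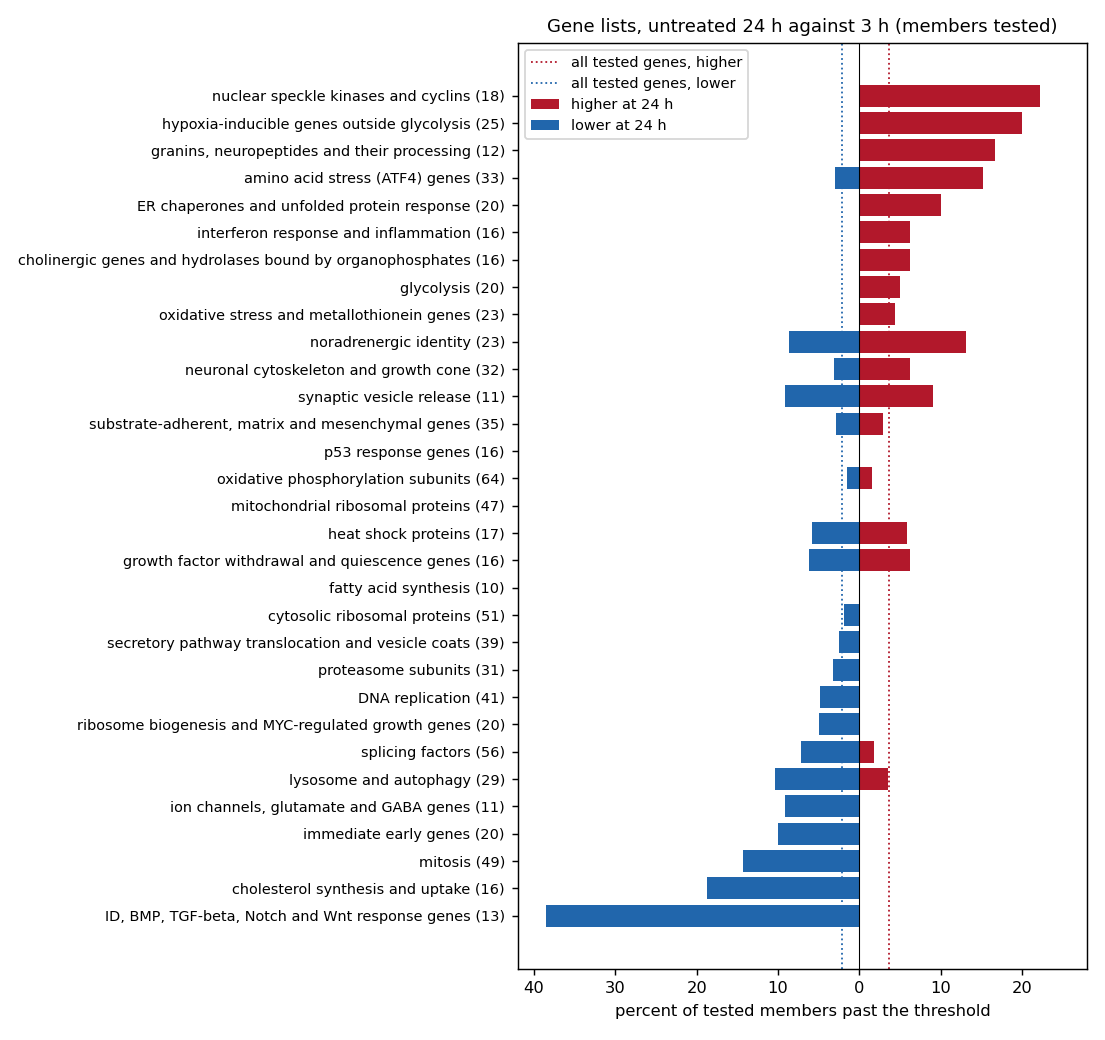
Percent of the tested members of 31 gene lists that were higher (red, to the right) or lower (blue, to the left) at 24 h at an adjusted p under 0.05, with the number tested in parentheses. Dotted lines mark the same percent over all 7178 tested genes, 3.57 for higher and 2.12 for lower; the ID and BMP response list, with 5 of 13, reaches farthest to the left and the nuclear speckle list, with 4 of 18, farthest to the right.

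The largest fall was that of TNFRSF21 (death receptor 6), at 86.2, 211 and 179 on the 24 h arrays, against 1523, 1315 and 1194 on the 3 h arrays (-3.03 ± 0.34, adjusted p = 7.06e-05). KCTD12, an auxiliary subunit of GABA-B receptors, followed, at 758, 789 and 534 on the 24 h arrays, against 2684, 4187 and 3170.1 on the 3 h arrays (-2.24 ± 0.22, adjusted p = 1.05e-05). For both, the highest 24 h array lay far under the lowest 3 h array, and KCTD12 passed in all 23 alternative fits and TNFRSF21 in the 22 that tested it, though TNFRSF21 was above background on 2 of the 3 arrays at 24 h. The other probe set of TNFRSF21, of nearly the same level, changed by -0.55 and did not pass. Beside CDCA8, MYC and SMAD6, described above, other stable genes among the 15 largest falls were GOLM1, a Golgi membrane protein (-1.83 ± 0.31, adjusted p = 0.00202), FNDC4 (-1.63 ± 0.32, adjusted p = 0.00532) and MTARC1, a mitochondrial reductase (-1.32 ± 0.28, adjusted p = 0.0107), each above background on 2 of 3 arrays at 24 h. FNDC4 and MTARC1 did not pass with the ACTB ratio as a covariate, where MTARC1 had -0.38. SNX19, TET3, DDX23, ELMO1, TOLLIP and MFAP4 changed by -1.85, -1.60, -1.58, -1.496, -1.45 and -1.36, and passed in 1 to 5 of the 6 fits that left out an array.

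Among the 15 largest rises, most had low signal, and their order and size rest in part on 3 h values that were not above background. GPA33, an antigen of gut epithelium, had 644, 467 and 629 on the 24 h arrays, against 118, 31.9 and 156 on the 3 h arrays (adjusted p = 0.00146) and was above background on 1 of the 3 h arrays. RLBP1, CBFA2T2, TAF1 and TAF9B were likewise above background on 1 of 3 at 3 h and on all 3 at 24 h, and no size of change is given for these 5 genes. For CBFA2T2, 2 of 3 probe sets went the other way, as did 1 of 3 for TAF9B, and neither gene passed with its probe sets averaged. TAOK1, IFNA4, NEU3, FLRT1 and TNFSF4 were above background on 2 of 3 arrays at 3 h, with changes of 2.20, 1.89, 1.64, 1.55 and 1.51. With probe sets and the filter chosen over the 15 arrays other than sarin 48 h, GPA33, RLBP1 and IFNA4 were under the filter, and TAF9B (-0.44) and SH3GL3 (-0.32) took probe sets that went the other way. The probe set used for RECK, a membrane-anchored inhibitor of matrix metalloproteinases, was bright throughout, at 11203, 7575 and 5429.7 on the 24 h arrays, against 2424, 2118 and 2916 on the 3 h arrays (1.64 ± 0.22, adjusted p = 0.000376). Its mean log2 level was 12.12, against 7.39 and 5.45 for the other RECK probe sets, which changed by 0.19 and -0.74. Thus 1 of the 3 probe sets went the other way, and RECK did not pass with all 3 averaged. SH3GL3 (endophilin A3) changed by 1.74 ± 0.31, adjusted p = 0.0031 with its brightest probe set and RHBDF1 by 1.83 ± 0.49, adjusted p = 0.0342, which passed in 1 of the 6 fits that left out an array.

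Sarin-exposed cells were followed over the same lapse of time on other arrays. On those arrays too, the ACTB ratio was higher at 24 h (1.56 to 1.64) than at 3 h (0.833 to 0.955). Their mean spike-in signal was 2358 to 2728 at 24 h and 1418 to 1480 at 3 h. A change shared by both kinds of cell therefore cannot be told apart from this shift of the arrays. Between 24 h and 3 h of exposure 639 genes (8.9%) passed, 332 (4.63%) higher and 307 (4.28%) lower, and the arrays did not overlap in 2859 (39.8%) of the genes tested. Of the 639, 59 were higher and 52 lower in both kinds of cell, which is 27.2% of the genes called in untreated cells and 17.4% of those called in sarin-exposed cells. The sign was shared by 348 of the 408. The share over all tested genes was not counted, so nothing is read from this number. The median log2 change of all tested genes was positive in both, 0.088 in untreated and 0.067 in sarin-exposed cells. Leaving out 1 sarin array in turn gave 266 to 550 calls in sarin-exposed cells. SCD5 changed by 1.84 in untreated and 1.90 in sarin-exposed cells, RECK by 1.64 and 1.64, and TNFRSF21 by -3.03 and -3.01. ID1 changed by -1.16 in untreated and -1.10 in sarin-exposed cells, KCTD12 by -2.24 and -1.85, and CDKN1C by 0.96 and 1.503. MYC changed by -0.59 ± 0.23, adjusted p = 0.119 in sarin-exposed cells, which did not pass, but the difference between the changes did not pass either (-0.83 ± 0.32, adjusted p = 0.261). Of the ID and BMP response list 5 fell in untreated and 6 in sarin-exposed cells, and of the mitosis list 7 and 5.

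**Figure D4:**
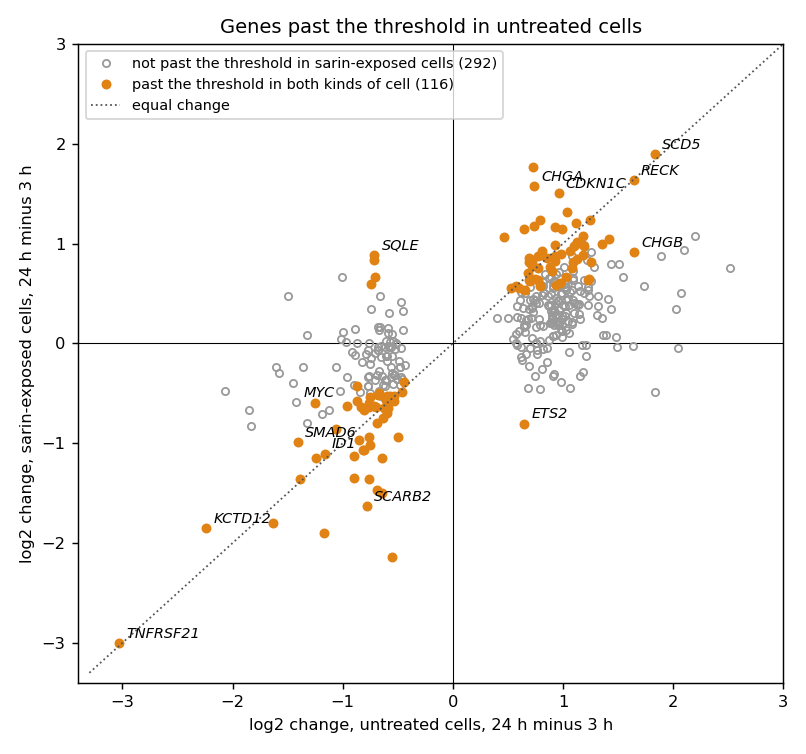
Log2 change (24 h minus 3 h) in sarin-exposed cells (vertical) against that in untreated cells (horizontal) for the 408 genes past the threshold in untreated cells. Filled points (116) also passed in sarin-exposed cells, and 111 of them changed in the same direction; the dotted line marks equal change, and SQLE and ETS2 lie in quadrants of opposite sign.

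The difference between the changes was itself tested as an interaction, and 60 genes (0.836%) passed, 32 (0.446%) with the untreated change above the sarin change and 28 (0.39%) with it below, 18 of the 60 among the 408. Leaving out 1 array in turn gave 20 to 108 such genes. The 5 genes that moved in opposite directions past the threshold in both kinds of cell were SQLE, MSMO1, SNRPB2, TMT1A and ETS2. For TMT1A, 2 of its 3 probe sets went the other way in untreated cells (0.19 and 0.32, against -0.71 for the one used). SQLE fell in untreated cells and rose in sarin-exposed cells, to 6344, 5686 and 5901 at 24 h against 2942, 3303 and 3433 at 3 h, and the difference, untreated minus sarin, was -1.60 ± 0.22, adjusted p = 0.000813. For MSMO1 the difference was -1.55 ± 0.29, adjusted p = 0.0144 and for HMGCS1 -1.13 ± 0.26, adjusted p = 0.0444, so that all 3 cholesterol genes that fell in untreated cells differed in this way. ETS2, a transcription factor downstream of MAP kinases, rose in untreated cells (0.65 ± 0.16, adjusted p = 0.0243) and changed by -0.81 ± 0.16, adjusted p = 0.00399 in sarin-exposed cells. CHGB rose in both, less in sarin-exposed cells, where it had 5589.7, 5588 and 6069.7 at 24 h against 3034, 2980.2 and 3112 at 3 h, and the difference passed (0.73 ± 0.15, adjusted p = 0.0267). For CHGA the change was 1.58 ± 0.17, adjusted p = 6.27e-06 with sarin, and the difference did not pass (-0.84 ± 0.23, adjusted p = 0.111). MRC2, a collagen receptor, rose in untreated cells (0.80 ± 0.14, adjusted p = 0.00321) with a difference of 1.25 ± 0.20, adjusted p = 0.00478; its rise did not pass with all probe sets averaged or with the ACTB ratio as a covariate. ZYX (zyxin, a focal adhesion protein) fell in untreated cells (-0.55 ± 0.15, adjusted p = 0.0364) and by more in sarin-exposed cells (-2.14 ± 0.15, adjusted p = 7.4e-08).

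At 48 h some changes of untreated cells were still present and others were not; these levels are given as a description, with no test. CHGB was at 3655, 3795 and 3831 at 48 h, within the range of its 3 h arrays, and CHGA was at 10928, 11249 and 8931, likewise within that range. SCD5 was still high, at 3813, 5362 and 4566. ID1 (2959, 2246 and 2391) stayed under its 3 h arrays, as did ID2 (6343, 7786 and 7129), which lay above its 24 h arrays. MYC was between, at 1186, 1030.2 and 1056. KCTD12 had 1314, 2281 and 2092 and TNFRSF21 610.2, 839.8 and 536, between their 24 h and 3 h levels. TFAP2B was at 1145, 1232 and 1436, overlapping its 3 h arrays. MTHFD2 (3062, 2926 and 3086) stayed above its 3 h arrays, and so did CDKN1C (1559, 1788 and 1648). CDCA8, low at 24 h, was at 1323, 1466 and 1323. The ACTB 3′ to 5′ ratio was 1.07, 1.439 and 1.441 on the 48 h arrays. Replicate 1 lay within the range at 3 h, and replicates 2 and 3 lay just under the 24 h range of 1.46 to 1.504.

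**Figure D5:**
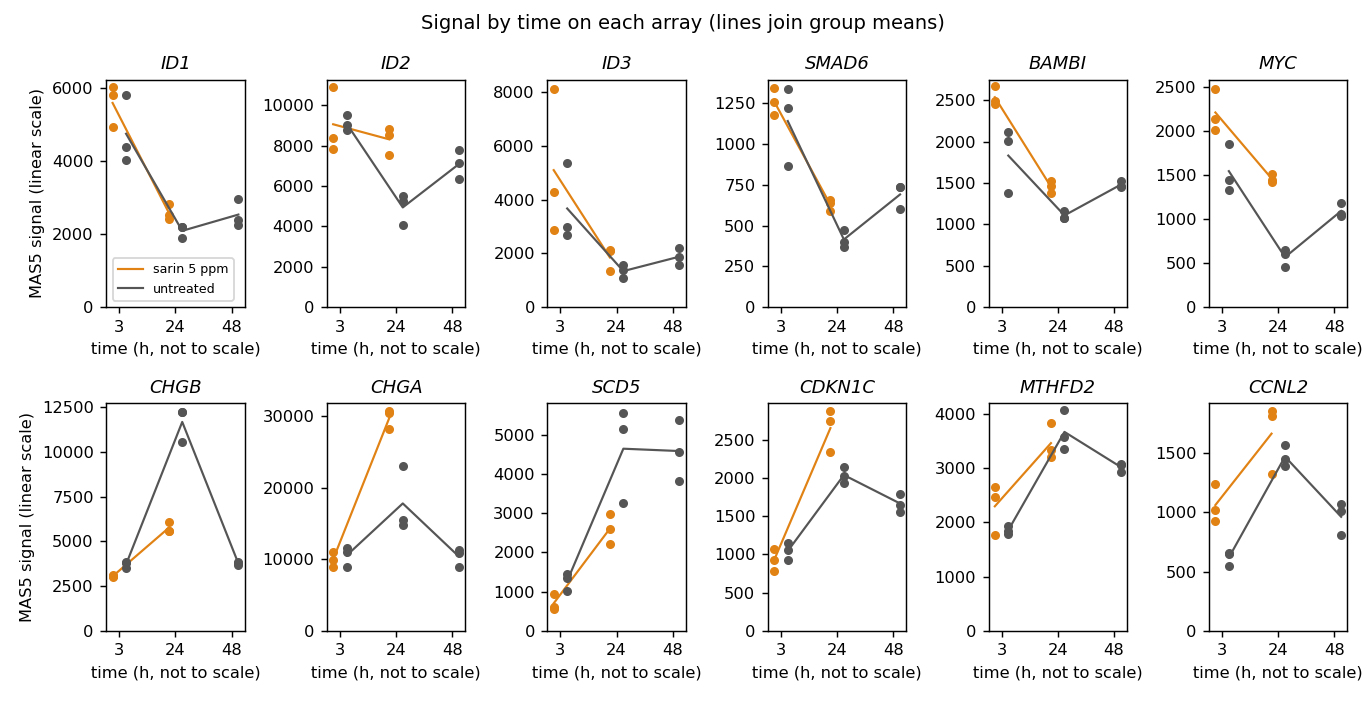
Signal (linear scale, from 0) of 12 genes at 3, 24 and 48 h on each array of untreated cells (grey) and at 3 and 24 h of sarin-exposed cells (orange), with lines through group means; times are evenly spaced and not to scale, and the sarin 48 h arrays are not drawn. CHGB peaks at 24 h in untreated cells, SCD5 stays high to 48 h, and ID1 and SMAD6 are lower at 24 h in both kinds of cell.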

How the data were processed

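Total RNA of SH-SY5Y cells was measured on single-colour oligonucleotide arrays. The deposited signal intensity values, 1 column per array on a linear scale, came from MAS5, per the submitters' processing notes, which state neither its version nor a scaling target. No array shared identical values with another. Of 22283 probe sets, 68 were controls, 19065 had 1 gene symbol, 1043 several and 2107 none; only those with 1 were used. Each of 11963 genes took its probe set of highest mean level, and those in the upper 60% by mean over 18 arrays (signal 344.7) were tested. Log2(signal + 16) was fitted by group in limma 3.58.1 (R 4.3.3, lmFit, eBayes with trend, 12 residual degrees of freedom); fold changes on that scale understate those of low genes. The ± after a log2 change (24 h minus 3 h) is its standard error, with 3 arrays per group. Above background means above the 90th percentile of 27 bacterial probe sets without spike. The number of arrays limits the precision.

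Named genes were the 15 largest changes in each direction among called genes with arrays that did not overlap, up to 6 called members of each list (2 by smallest p where fewer than 2 passed), the 6 smallest p in each direction of the interaction, and 10 set genes. Members and lists were chosen with earlier results of these data known. Promoter sequences come from RefSeq. Alternatives were other pseudocounts, filters, scalings, probe set rules, limma settings, sets of arrays and a replicate block.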

Additional observations from a re-analysis of the deposited data

Results flagged for a closer look

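The interaction test (limma, untreated change minus sarin change, 24 h minus 3 h) passed for 20 of the genes named, meaning that the change with time differed between untreated and sarin-exposed cells. For 5 genes the change was past the threshold with opposite signs: SQLE (difference -1.60), MSMO1 (-1.55), SNRPB2 (-1.33), TMT1A (-1.37) and ETS2 (1.46). In untreated cells, 2 of the 3 probe sets of TMT1A went the other way. For 8 more the untreated change alone, or with a sarin change of the same sign, passed: CHGB (0.73), MRC2 (1.25), ZYX (1.59), SCARB2 (0.85), EGLN1 (1.14), HMGCS1 (-1.13), GLUL (-1.09) and DNAJA1 (-0.89). The other 7 did not pass in untreated cells: PFKP (2.33), PRSS12 (2.14), GPI (1.09), H2BC12 (-2.11), SCD (-1.91), DYNC1H1 (-1.30) and H2BC5 (-1.32). Probe sets of the histone genes H2BC12 and H2BC5 may share sequence with near-identical copies, which was not tested here. The adjusted p ranged from 8.43e-05 for PFKP to 0.0457 for EGLN1, and with each array scaled to the spike-ins 1 gene of all tested passed the interaction.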

How the results depend on the processing

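As deposited, 408 genes passed in untreated cells, 639 in sarin-exposed cells and 60 for the difference; these 3 counts stayed within 1.5 times without a pseudocount, with a pseudocount of 64, without a level filter, with the upper 40% of genes and with the mean of all probe sets. With no trend in the fit the difference gave 36. Quantile normalization gave 162, 368 and 36. Median centring gave 1190 for untreated cells and 133 for the difference, and spike-in scaling gave 2490, 2309 and 1. Array weights gave 929, 2130 and 396. The arrays of the comparison alone gave 56 for untreated and 1688 for sarin-exposed cells, the 9 untreated arrays gave 246, and leaving out the sarin 48 h arrays gave 692 and, for the difference, 123; without replicate 3 of untreated 3 h as well, 897 passed in untreated cells. The ACTB ratio as a covariate gave 335 for the difference. Leaving out 1 array in turn gave 175 to 537 in untreated cells, 266 to 550 in sarin-exposed cells and 20 to 108 for the difference; the sarin count stayed within 1.5 times only without replicate 1 of sarin 3 h, and the difference was lowest without replicate 1 or 2 of sarin 24 h and highest without replicate 2 of untreated 3 h. The median of the cytosolic ribosomal protein list turned from -0.30 to 0.082 without replicate 3 of 3 h. Of the genes named, 102 passed; under spike-in scaling 18 of them changed sign: ATP5IF1 (-0.21), CARS1 (-0.25), CBS (-0.17), CCNL1 (-0.081), CHGA (-0.042), DDC (-0.20), DDIT3 (-0.063), EGLN1 (-0.091), ETS2 (-0.13), HLA-E (-0.18), KIF5C (-0.28), PDIA6 (-0.018), PNPLA6 (-0.023), SLC2A1 (-0.060), SLC6A2 (-0.16), SQSTM1 (-0.078), SRSF11 (-0.078) and WFS1 (-0.12). With the ACTB ratio as a covariate PSMC3 (0.056), SNRPB (0.079) and SRSF11 (-0.039) changed sign, with probe sets and filter chosen over the 15 arrays other than sarin 48 h SH3GL3 (-0.32), SRRM2 (-0.35), TAF9B (-0.44) and TOP2A (0.17) did, and with all probe sets averaged ACTA2 did (0.35). The spike-in, ACTB ratio, 15-array and 897-gene alternatives were chosen after seeing the data. The causes were not tested.

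With the replicate number as a block, 398 genes passed in untreated cells, 631 in sarin-exposed cells and 53 for the difference. Deviations of arrays with the same number correlated at 0.23, 0.11 and -0.14 between 24 h and 3 h, and those of other pairs at -0.27 to 0.17. These few values cannot decide whether the numbers pair the arrays. In untreated cells, spike-in signal ranked replicate 1 over 2 over 3 at both times, and background level ranked 1 over 3 over 2.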

Other observations

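Of the 81 stable genes, 7 outside the gene lists are given here, chosen after their values were seen. EPAS1, which encodes the hypoxia-inducible factor HIF-2alpha, had 2118, 2349 and 2159.8 on the 24 h arrays, against 5769.7, 3914 and 4400.2 on the 3 h arrays. Its log2 change was -1.06 ± 0.19, adjusted p = 0.00321. PTPRO, a receptor-type tyrosine phosphatase of neurons and podocytes, had 9074, 8659 and 7375 on the 24 h arrays, against 3407, 3795 and 4615 on the 3 h arrays (1.09 ± 0.14, adjusted p = 0.000279). ENC1, an actin-binding protein of the nervous system, had 3534, 4882 and 3883 on the 24 h arrays, against 7468, 8957 and 13341 on the 3 h arrays (-1.24 ± 0.20, adjusted p = 0.00142). FOLR1, a folate receptor, changed by 1.24 ± 0.22, adjusted p = 0.00331, ACADVL, the first enzyme of long-chain fatty acid oxidation in mitochondria, by 0.92 ± 0.16, adjusted p = 0.00321, PDHB, a subunit of pyruvate dehydrogenase, by -0.99 ± 0.20, adjusted p = 0.00726, and GNB1, a G protein beta subunit, by -0.75 ± 0.15, adjusted p = 0.00726. For each of these 7 genes the 24 h arrays did not overlap the 3 h arrays. With the ACTB ratio as a covariate, 1 of the 7 (ENC1) passed, and with all probe sets averaged PDHB and GNB1 did not.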
